A study of Mus musculus with 4 samples.

Results

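The genes described here are the Wnt ligands, their receptors and co-receptors, the secreted proteins that block or boost them, and a few genes through which the response to Wnt is commonly read. The list is defined by gene symbols, as every Wnt, Fzd, Dkk, Sfrp and Rspo gene of the deposited expression table, together with Frzb, Wif1, Lrp5, Lrp6, Axin2, Lef1, Tcf7, Nkd1, Nkd2, Notum, Znrf3, Rnf43, Ror1 and Ror2. This gave 55 genes of the 47729 in the table. They were measured by RNAseq of tumors grown from Lewis lung carcinoma (LLC) cells, a mouse lung tumor line from the C57BL/6 strain. Mice of that same strain carried the tumors beneath the dorsal skin for 5 days before collection. In the group named LLC the labels give the grafted cells as wild type. In the group named LLC-Chem they had been transfected with a pEFIN plasmid for chemerin (residues 1-157), a secreted chemoattractant protein. These cells were kept under G418 as individual clones. Effects of chemerin, of the plasmid and the selection, and of differences between clones therefore cannot be told apart. Each group had 2 RNA samples, and each sample was a pool of 3 tumors. The comparison asked how expression of chemerin by the tumor cells changed the transcripts of the young tumor as a whole.

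Wnt proteins are secreted lipid-modified ligands that bind Frizzled receptors at the cell surface. In the canonical branch a Frizzled joins the co-receptors Lrp5 or Lrp6, β-catenin escapes degradation and enters the nucleus, and transcription factors of the TCF/LEF family switch on targets such as Axin2, while in the other branches Ror receptors and planar polarity proteins steer cell shape and migration. Dkk proteins act on the co-receptors, Sfrp proteins and Wif1 bind the Wnt ligands themselves, Notum removes their lipid, and R-spondins raise receptor levels by keeping the ubiquitin ligases Znrf3 and Rnf43 away from Frizzleds. In tumors both the cancer cells and the stroma can make Wnts and antagonists, and Wnt signaling is a known regulator of vessel growth.

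Depth came to between 28470000 and 33990000 reads per pool, as recovered from the steps of the deposited reads per 1000000 (RPM), and a count of 3 reads corresponded to 0.088 to 0.105 RPM, which covers counting error only. Rarres2, the gene of chemerin, was read at 102 and 98.2 RPM in LLC tumors against 106 and 106 RPM in LLC-Chem tumors, which did not pass the test (log2 fold change 0.08 ± 0.09, SE with n = 2 pools a group, limma adjusted p = 0.541). Of its exon bases 33.6% lie under a gene of the opposite strand. Rarres2 therefore does not check the labels, and the group names used here are those of the labels. The test was the two-sided one of limma on log2(RPM + 0.5) and took in the 13694 genes whose mean reached 1 RPM. A gene is said to be called when its p-value, adjusted by Benjamini-Hochberg over these genes, was below 0.05. Errors after a log2 fold change are standard errors, and the pseudocount of 0.5 understates the fold changes of weak genes. Nothing in the sources says whether the pools came from separate experiments, so that p-values measure only the spread between these pools. A permutation test of a single value with 2 against 2 pools cannot go below p = 0.33, and none is given. Because whole tumors were sequenced, fewer cells of a type and less RNA per cell cannot be told apart. Of the markers of other cells, endothelial genes were lower in the LLC-Chem pools (5 of 6 called, summed level 223 and 191 RPM in LLC against 63.1 and 36.1 RPM), as were mural cell genes (4 of 5 called, 224 and 188 against 66.8 and 42.8 RPM). Of the genes of keratinocytes, the cells of the skin beside the graft, Krt5, Krt14, Krt1 and Dsp had at most 0.10 RPM in any pool, while Krt10 stood at 2.90 and 4.35 RPM in LLC against 2.05 and 2.10 RPM and was not called (limma adjusted p = 0.109). Of the skeletal muscle genes Ckm and Myh4 were at 0 in each of the 4 pools, Acta1 and Mylpf had reads in every pool but were below the filter, and Tnnt3 was called higher (1.05 and 1.75 against 3.15 and 4.6 RPM, limma adjusted p = 0.0419). Of the leukocyte genes 2 of 5 were called lower (3268 and 6008 RPM summed over LLC against 2725 and 1315 RPM), and the pools of the adipocyte genes overlapped (28.1 and 20.1 RPM summed against 39.9 and 14.3 RPM) except for Cfd, which was called higher (1.40 and 1.40 against 15.1 and 4.10 RPM).

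Of the 55 genes, 36 passed the filter of 1 RPM and were tested. Among these, 4 rose in the LLC-Chem pools (Frzb, Wnt10a, Lrp6 and Dkk2) and 5 fell (Fzd1, Fzd4, Sfrp2, Wnt5a and Wnt9a). That is 11.1% called higher against 9.54% of all tested genes, and 13.9% called lower against 13.5% of all tested genes, so that the family was called about as often as the genome at large. The median log2 fold change was -0.17 for the 36 genes and -0.04 for all tested genes, and the median size of the log2 fold change, without its sign, was 0.58 against 0.33. Both LLC-Chem pools lay above both LLC pools for 9 of the 36 genes (25% against 33.1% of all tested genes) and below both for 14 (38.9% against 39.3%). With a block for the replicate number of the labels 2 of the 36 were called higher, against 4.01% of all genes, and 5 lower, against 7.77%. Of those called lower, Fzd1, Fzd4 and Sfrp2 were also called without the block, while Sfrp1 and Wnt16 were not. Leaving out any single pool, in either group, left no called gene in the whole table. In those fits 1 group has a lone pool, which is assumed to vary like the other group. Frzb and Wnt10a passed the filter only through the LLC-Chem pools and Rspo3 only through the LLC pools, so the counts over genes that passed carry that choice with them. Exons of 10 of the 55 genes overlap a gene on the opposite strand, by 3.2% to 38.1% of their bases (16.1% for Sfrp2 and 4.6% for Wnt5a among the called ones). The sources do not state whether counting used the strand. Those opposite genes that were in the table were at 0.50 RPM or less.

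**Figure D1:**
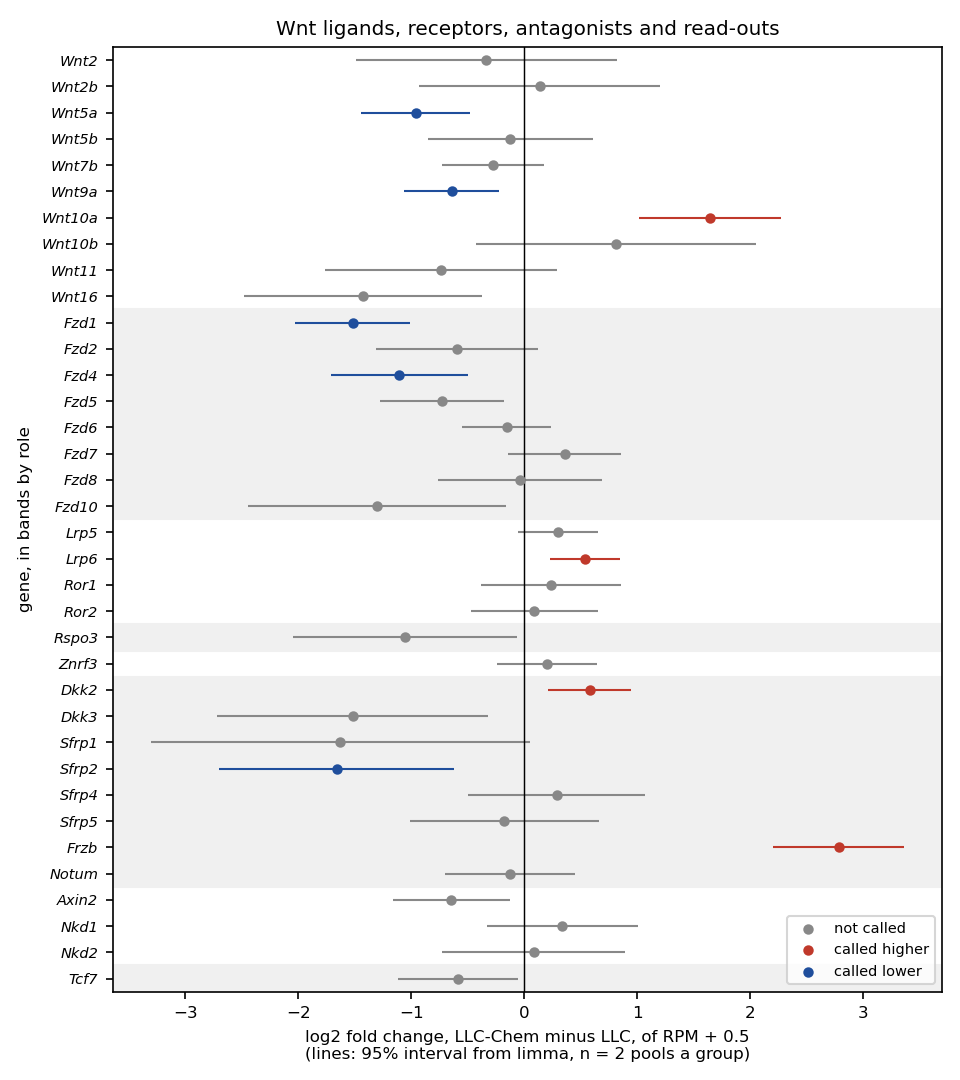
Log2 fold change (horizontal axis, LLC-Chem minus LLC, of RPM + 0.5) of the 36 tested genes (vertical axis, in bands by role), each with its 95% interval from limma; n = 2 pools a group. The 4 genes called higher (red) and the 5 called lower (blue) are spread over ligands, receptors and antagonists, and Frzb stands farthest to the right at 2.78.

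Promoter sequences are shown for the called genes whose whole 250 bases before the RefSeq start lay outside every annotated exon, since these are the windows in which genes that moved together, or apart, can be compared letter by letter. Fzd1 and Sfrp2 fell and Dkk2 rose. The bases are RefSeq sequence of GRCm38.p6, written in the direction of the gene. Fzd1 is at chr5:4758217-4758466 on the minus strand, and Sfrp2 and Dkk2 are at chr3:83766071-83766320 and chr3:132085042-132085291 on the plus strand. Capitals mark the core letters of the hypoxia response element (ACGTG or GCGTG, either strand).
Fzd1: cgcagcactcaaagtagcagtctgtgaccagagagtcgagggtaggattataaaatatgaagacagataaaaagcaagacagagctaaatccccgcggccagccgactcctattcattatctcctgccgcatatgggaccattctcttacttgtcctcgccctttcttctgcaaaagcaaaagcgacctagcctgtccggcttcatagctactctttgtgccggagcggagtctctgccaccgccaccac
Sfrp2: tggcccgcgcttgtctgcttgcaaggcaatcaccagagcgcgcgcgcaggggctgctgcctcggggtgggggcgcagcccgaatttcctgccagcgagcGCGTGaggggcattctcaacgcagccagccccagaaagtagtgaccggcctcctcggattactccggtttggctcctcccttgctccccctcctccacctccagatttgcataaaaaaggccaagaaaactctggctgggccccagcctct
Dkk2: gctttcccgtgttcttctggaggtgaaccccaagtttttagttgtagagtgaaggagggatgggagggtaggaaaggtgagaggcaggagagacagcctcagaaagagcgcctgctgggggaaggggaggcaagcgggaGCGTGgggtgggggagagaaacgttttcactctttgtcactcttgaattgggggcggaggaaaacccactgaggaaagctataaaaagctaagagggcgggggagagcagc
No base of the Fzd1 window was capitalized, while Sfrp2 and Dkk2 each held 1 match. This core was in 38.6% of 32851 RefSeq promoter windows of the same length, in 21 of the 37 Wnt family genes that have a window, and in 4 of the 6 called ones. The TCF/LEF letters (CTTTGAA or CTTTGAT or CTTTGTA or CTTTGTT, either strand) were in 14.8% of all windows, in 5 of the 37 and in 0 of the 6 called genes with a window. All windows were counted singly, but a family gene was counted when any of its windows matched. A gene with several windows thus had more chances, and the family counts cannot be set directly against the shares of all windows. These matches describe the letters of the windows only.

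Among the 19 ligands, Wnt10a rose, Wnt5a and Wnt9a fell, and the most abundant transcripts, Wnt2 and Wnt7b, did not pass the test. Wnt10a (chr1:74791516-74804179, plus strand; positions of genes are those of the GENCODE M21 annotation on GRCm38), a canonical ligand known from skin and tooth development, was at 0.35 and 0.25 RPM in LLC but at 2.20 and 1.80 RPM in LLC-Chem. Behind the LLC values stood 10 and 6 reads, behind the others 74 and 59. Wnt10a passed the filter only through its LLC-Chem pools. The pools of the groups were far apart, with a 6.67-fold ratio of the means and a log2 fold change of 1.64 ± 0.25 (limma adjusted p = 0.0165). Its neighbor Wnt6, which lies 6.2 kb away on the same strand, was read too weakly to be tested, at 0.65 and 0.75 RPM against 1.25 and 0.65 RPM.

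Wnt5a, the main ligand of the β-catenin-independent branch, lies at chr14:28504750-28527448 on the plus strand. Its values were 16.2 and 12.4 RPM in LLC against 6.65 and 7.45 RPM in LLC-Chem (log2 fold change -0.96 ± 0.19, limma adjusted p = 0.0274). Wnt9a, a ligand known from joint and blood development (chr11:59306928-59333552, plus strand), gave 12.4 and 15.1 RPM against 8.45 and 8.75 RPM (-0.64 ± 0.17, limma adjusted p = 0.0472). In neither gene did the groups overlap. The Wnt9a call was lost with TMM or median-of-ratios scaling, with a filter at 0.5 RPM, in edgeR and with the replicate block (limma adjusted p = 0.0595 with TMM and 0.0889 with the block). That of Wnt5a was lost with the replicate block (limma adjusted p = 0.0577).

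Wnt2 and Wnt7b carried most of the ligand signal. Per kilobase of exon, the scale on which genes are compared here, Wnt2 stood at 27.5 RPM per kb in LLC and 19.1 in LLC-Chem, and Wnt7b at 14.7 and 11.9. Wnt2, a canonical ligand of lung and stromal cells, measured 32.1 and 92.0 RPM in LLC against 40.1 and 46.0 RPM (log2 fold change -0.34 ± 0.46, limma adjusted p = 0.607). Its LLC pools differed from each other by 2.86-fold and enclosed both LLC-Chem pools. Wnt7b, known as a ligand of lung epithelium and of vessel remodeling, gave 84.5 and 59.1 RPM against 59.5 and 56.7 RPM, also overlapping (-0.28 ± 0.18, limma adjusted p = 0.283). The 2 genes together made up 74.4% and 76.3% of the summed ligand level per kb in the LLC pools and 73.4% and 75.2% in the LLC-Chem pools, with Wnt7b ahead in LLC replicate 1 and Wnt2 ahead in the other pools.

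The rest of the ligands were weaker. Wnt16, a ligand known from bone and blood stem cell development, measured 4.95 and 11.6 RPM in LLC against 2.00 and 3.15 RPM in LLC-Chem; the groups did not overlap, but the gene was not called (-1.43 ± 0.42, limma adjusted p = 0.0615). It was called lower with the replicate block (limma adjusted p = 0.0378) and by DESeq2. Wnt10b, a canonical ligand that restrains fat cell formation, gave 3.05 and 10.04 RPM against 10.3 and 10.1 RPM. Both LLC-Chem pools were higher, but only just higher than LLC replicate 2, and the gene was not called (0.81 ± 0.50, limma adjusted p = 0.263). Wnt11, a ligand of the planar polarity branch, measured 5.05 and 11.4 RPM against 5.45 and 3.5 RPM, with overlapping pools. Wnt2b gave 2.60 and 1.80 RPM against 1.45 and 3.90 RPM, and Wnt5b 1.30 and 1.80 RPM against 1.75 and 1.05 RPM. Neither of these separated the groups. The other 9 ligands, Wnt1, Wnt3, Wnt3a, Wnt4, Wnt6, Wnt7a, Wnt8a, Wnt8b and Wnt9b, were not tested, and Wnt6 was the only ligand among them to reach 1 RPM in any pool. Wnt7a had no read in any of the 4 pools.

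**Figure D2:**
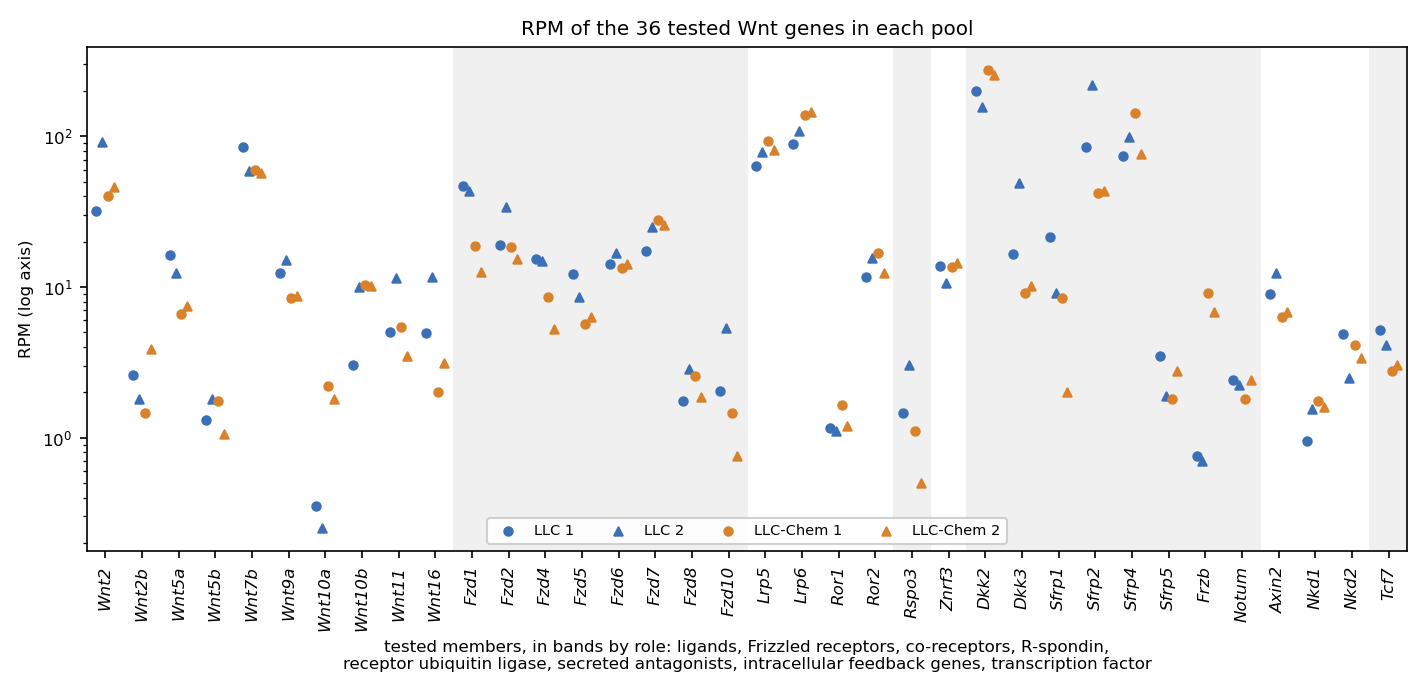
RPM (vertical axis, logarithmic) of the 36 tested genes in each of the 4 pools; each gene has 4 points, circles for replicate 1 and triangles for replicate 2, blue for LLC and orange for LLC-Chem, and shaded bands separate the roles. For Frzb the LLC pools lie at 0.75 and 0.70 RPM and the LLC-Chem pools at 9.14 and 6.85 RPM, while for Wnt2 the LLC pools at 32.1 and 92.0 RPM enclose the LLC-Chem pools.

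Of the 8 tested Frizzled receptors 2 fell, in limma and in edgeR, while DESeq2 also called Fzd5 and Fzd10 lower; in limma 13.5% of all tested genes were called lower and 9.54% higher. No Frizzled rose, also at an unadjusted p of 0.05 or with edgeR or DESeq2. In 7 of the 8 the log2 fold change was negative, with a median of -0.66 against -0.04 for all tested genes, although the smallest of these, -0.04 for Fzd8, became 0.0015 with TMM scaling. Fzd1 (chr5:4753839-4758035, minus strand) had the larger fall of the called receptors. Its values were 46.6 and 43.2 RPM in LLC against 18.7 and 12.5 RPM in LLC-Chem, with the LLC pools close to each other and both LLC-Chem pools far below them (2.88-fold lower by the means, log2 fold change -1.52 ± 0.20, limma adjusted p = 0.0139). Fzd4 (chr7:89404355-89413134, plus strand), known as the endothelial receptor for norrin in retinal vessels, measured 15.4 and 14.8 RPM against 8.55 and 5.30 RPM (-1.11 ± 0.24, limma adjusted p = 0.0333). Its groups were also well separated, and the call was lost in edgeR with the replicate block (adjusted p = 0.0642).

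Another 3 Frizzleds had both LLC-Chem pools below both LLC pools without being called, an order found in 39.3% of all tested genes. Fzd5, a receptor needed for yolk sac vessels, gave 12.2 and 8.55 RPM against 5.65 and 6.30 RPM (-0.73 ± 0.22, limma adjusted p = 0.065). Fzd2 gave 19.0 and 34.1 RPM against 18.3 and 15.2 RPM (-0.60 ± 0.29, limma adjusted p = 0.174), and Fzd10 2.05 and 5.35 RPM against 1.45 and 0.75 RPM (-1.31 ± 0.46, limma adjusted p = 0.0904). In both of these LLC replicate 2 was the high pool and LLC replicate 1 lay near the LLC-Chem pools. Fzd7, a canonical receptor often found in tumor and stem cells, measured 17.3 and 25.1 RPM against 28.0 and 25.7 RPM. Its groups did not overlap, but LLC-Chem replicate 2 lay only just above LLC replicate 2 (0.36 ± 0.20, limma adjusted p = 0.227). Fzd6 (14.1 and 16.9 RPM against 13.3 and 14.3 RPM) and Fzd8 (1.75 and 2.85 RPM against 2.55 and 1.85 RPM) overlapped. Fzd3 and Fzd9 stayed below 1 RPM in each pool and were not tested.

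Set side by side per kilobase of exon, the Frizzleds summed to 28.2 and 34.4 RPM per kb in the LLC pools and to 21.6 and 18.1 in the LLC-Chem pools. Fzd1 made up 39.3% and 29.9% of that sum in LLC and 20.6% and 16.5% in LLC-Chem. Fzd7 made up 13.5% and 16.1% in LLC and 28.7% and 31.3% in LLC-Chem, and was the most abundant Frizzled transcript in both LLC-Chem pools, where Fzd1 was the most abundant in both LLC pools. The fall of Fzd1 and Fzd4 went together with that of the endothelial markers, of which Tek alone was not called, and of the mural markers, of which Kcnj8 alone was not called; the part of these cells in the Frizzled values was not tested.

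**Figure D3:**
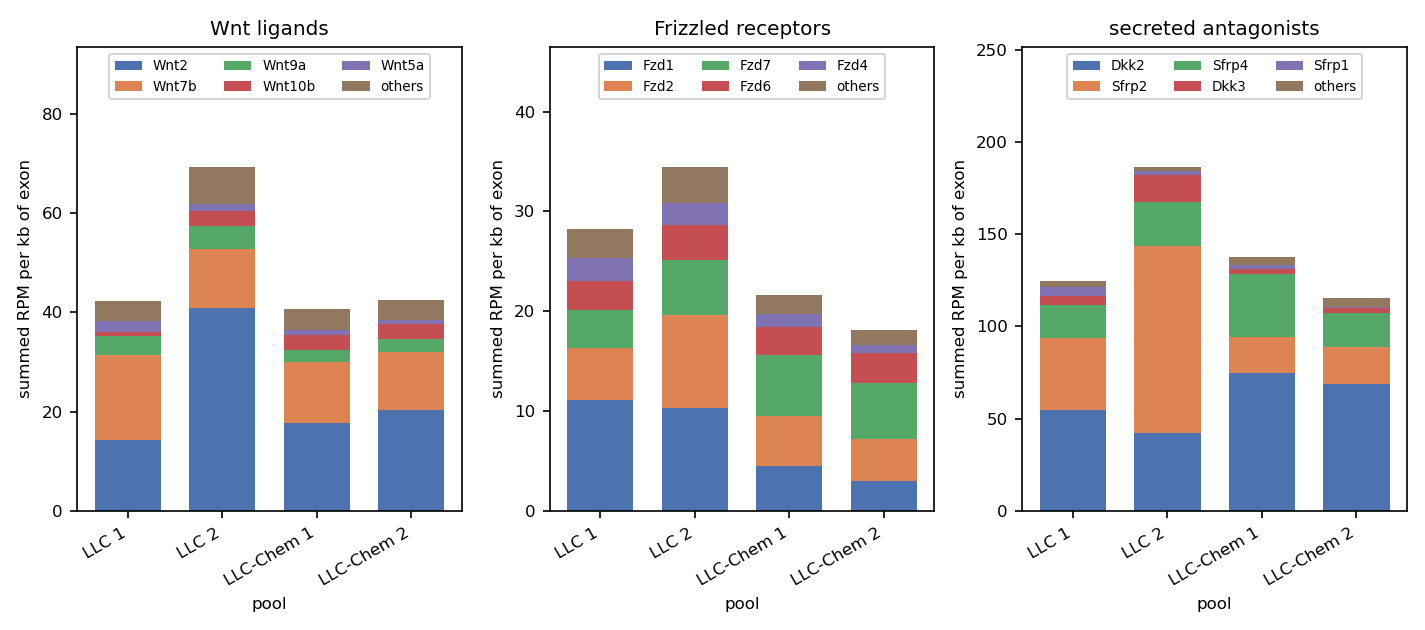
Level per length (vertical axes, summed RPM per kb of exon, from 0) of the Wnt ligands, the Frizzled receptors and the secreted antagonists in each of the 4 pools, with the leading genes stacked by color and the rest as others. Fzd1 shrinks from 39.3% and 29.9% of the Frizzled sum in the LLC pools to 20.6% and 16.5% in the LLC-Chem pools, and among antagonists Sfrp2 stands out in LLC replicate 2 (54.4%).

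Each of the 4 co-receptors had a positive log2 fold change, and 1 of them was called (against 9.54% of all tested genes called higher), but that of Ror2 ran from -0.13 to 0.30 when single pools were left out. Lrp6 (chr6:134446476-134566965, minus strand), which with a Frizzled starts the canonical signal, rose from 88.7 and 108 RPM in LLC to 139 and 144 RPM in LLC-Chem (log2 fold change 0.54 ± 0.12, limma adjusted p = 0.036). Lrp5, its close relative, measured 63.3 and 78.4 RPM against 93.0 and 80.9 RPM, higher in both LLC-Chem pools but by little over the spread within a group (0.30 ± 0.14, limma adjusted p = 0.171). The 2 genes were close in level per length, at 10.4 and 8.92 RPM per kb in LLC-Chem. Ror2, the receptor tyrosine kinase through which Wnt5a acts on cell movement, gave 11.6 and 15.6 RPM against 16.7 and 12.3 RPM with overlapping pools, and Ror1 gave 1.15 and 1.10 RPM against 1.65 and 1.20 RPM (0.23 ± 0.25, limma adjusted p = 0.504).

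R-spondins were scarce. Rspo3, an angiogenic member made by endothelial and stromal cells, was the only one tested, at 1.45 and 3.05 RPM in LLC against 1.10 and 0.50 RPM in LLC-Chem (-1.06 ± 0.40, limma adjusted p = 0.105), with every LLC-Chem value below both LLC values. Rspo2 had 20 reads in LLC replicate 2 and 1 read in each other pool. Of the ubiquitin ligases that clear Frizzleds from the surface, Znrf3 measured 13.7 and 10.6 RPM against 13.5 and 14.4 RPM and did not separate the groups. Rnf43, itself a β-catenin target, was low at 0.55 and 0.50 RPM in LLC and at 0.15 and 0 RPM in LLC-Chem, or 16 and 13 reads against 4 and 0, and was below the filter.

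The secreted antagonists held the largest rise of the family, that of Frzb, and a large fall in Sfrp2 that rested in part on 1 pool. Without LLC replicate 2 the fall of Fzd1 (-1.57) exceeded that of Sfrp2. Frzb (chr2:80411970-80447625, minus strand), a secreted decoy receptor also known as an inhibitor of Wnt in cartilage, was at 0.75 and 0.70 RPM in LLC but at 9.14 and 6.85 RPM in LLC-Chem. In reads this was 22 and 19 against 310 and 228. Frzb passed the filter of 1 RPM only through its LLC-Chem pools, so its place as the largest rise carries that choice. The ratio of the means was 11-fold and the log2 fold change 2.78 ± 0.23 (limma adjusted p = 0.0086), and it lay between 2.59 and 2.98 when any pool was left out. Sfrp2 (chr3:83766321-83774316, plus strand), a secreted Frizzled-related protein of fibroblasts that has also been described as angiogenic, measured 85.0 and 218 RPM against 42.3 and 43.1 RPM. Both LLC pools were higher, but they differed from each other by 2.57-fold. Its log2 fold change of -1.66 ± 0.42 (limma adjusted p = 0.0432) became -0.98 without LLC replicate 2 and -2.34 without LLC replicate 1, and the call was lost with TMM scaling (limma adjusted p = 0.0512), in limma without a trended prior (0.0714) and in edgeR with the replicate block (0.0617).

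Dkk2 (chr3:132085292-132180304, plus strand), which binds Lrp5 and Lrp6, stood first in the family per length by the mean over the 4 pools, at 60.0 RPM per kb against 45.1 for Sfrp2. By the group means Sfrp2 was the higher in LLC (70.4 against 48.3 RPM per kb) and Dkk2 in LLC-Chem (71.6 against 19.8). The order in LLC came from replicate 2, since in replicate 1 Dkk2 was the higher (54.4 against 39.5 RPM per kb). It rose from 201.4 and 157 RPM in LLC to 276 and 255 RPM in LLC-Chem (0.58 ± 0.15, limma adjusted p = 0.0446). Every LLC-Chem value was above both LLC values. The calls of Lrp6 and Dkk2 were lost when limma was run without a trended prior (adjusted p = 0.0696 and 0.0769) and with the replicate block. Dkk3, a divergent family member, measured 16.5 and 48.9 RPM against 9.09 and 10.1 RPM. The groups were apart, LLC replicate 2 was 2.95 times LLC replicate 1, and the gene was not called (-1.52 ± 0.48, limma adjusted p = 0.0707). DESeq2 called Dkk3 lower (DESeq2 adjusted p = 0.00148). The log2 fold change became -0.75 without LLC replicate 2 and -2.29 without LLC replicate 1. Dkk1, the best known inhibitor of Lrp6, had no read in any pool, and Dkk4 had at most 1 read per pool. At this depth the Dkk transcripts of these tumors were those of Dkk2 and Dkk3.

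Sfrp4 and Sfrp1 differed widely between pools of a group. Sfrp4, made by many mesenchymal cells, gave 73.8 and 99.5 RPM in LLC against 143 and 76.3 RPM in LLC-Chem, and was not called (0.28 ± 0.31, limma adjusted p = 0.521). Sfrp1 gave 21.5 and 9.14 RPM against 8.40 and 2.00 RPM, so that replicate 1 was above replicate 2 in both groups (-1.63 ± 0.67, limma adjusted p = 0.129). The replicate block made it a call, in the lower direction (limma adjusted p = 0.0281). Sfrp5 was between 1.80 and 3.5 RPM and Notum, the Wnt deacylase, between 1.80 and 2.40 RPM in the 4 pools, each with overlapping groups. Wif1 had 5 and 1 reads in the LLC pools and 0 in both LLC-Chem pools. Summed per length, the 4 Dkk genes stood at 59.3 and 56.8 RPM per kb in the LLC pools and at 77.2 and 71.85 in the LLC-Chem pools. The Sfrp genes with Frzb stood at 64.1 and 128.5 against 59.6 and 42.3. Among all antagonists Dkk2 made up 43.7% and 22.7% of the sum in LLC and 54.2% and 59.8% in LLC-Chem, and Sfrp2 31.7% and 54.4% against 14.3% and 17.4%.

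The genes through which β-catenin activity is commonly read did not share a direction, and none was called. Axin2 and Tcf7 were lower in both LLC-Chem pools, as were 39.3% of all tested genes, and so were Lef1 and Rnf43, which were too low to be tested. Nkd1 was higher in both, and the pools of Znrf3, Notum and Nkd2 overlapped. Axin2, a direct target and a scaffold of the destruction complex, measured 9 and 12.4 RPM in LLC against 6.30 and 6.85 RPM in LLC-Chem (-0.65 ± 0.21, limma adjusted p = 0.0744). Tcf7, a TCF/LEF factor with high levels in T cells, gave 5.15 and 4.10 RPM against 2.75 and 3.05 RPM (-0.59 ± 0.21, limma adjusted p = 0.0977). Lef1 was below the filter, at 0.60 and 0.50 RPM or 17 and 13 reads in LLC, and 0.10 and 0.15 RPM or 2 and 4 reads in LLC-Chem. The T cell markers moved in the same direction as Tcf7 and Lef1. All 5 were lower in both LLC-Chem pools, with summed levels of 12.1 and 9.445 RPM in LLC against 4.05 and 2.95 RPM in LLC-Chem, and their part in the values of Tcf7 and Lef1 was not tested. Of the 2 that could be tested, Lck was called but passed the filter only through its LLC pools (5.65 and 4.40 against 0.90 and 0.45 RPM), and Cd2 was not called (limma adjusted p = 0.32). Nkd1 and Nkd2, feedback inhibitors of Dishevelled, were not called. Nkd1 measured 0.95 and 1.55 RPM against 1.75 and 1.60 RPM (0.33 ± 0.27, limma adjusted p = 0.382), and Nkd2 gave 4.90 and 2.50 RPM against 4.15 and 3.40 RPM.

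How far pools of the same group differed did not depend on the comparison, and a wide spread was not particular to the family. The LLC pools were at least 1.5-fold apart for 14 of the 36 tested genes, against 12.4% of all tested genes, and the LLC-Chem pools for 10 of 36, against 9.65%. In 11 genes LLC replicate 2 was the higher by that margin, against 6.34% of all tested genes, and in 8 of them by 2-fold or more: Wnt2, Wnt10b, Wnt11, Wnt16, Fzd10, Rspo3, Dkk3 and Sfrp2. In LLC-Chem, Sfrp1 stood out with replicate 1 at 4.2 times replicate 2. Among the 28 tested markers of other cells, LLC replicate 2 was the higher by at least 1.5-fold in 8 and LLC replicate 1 in 5. By the same margin LLC-Chem replicate 1 was the higher in 17 of the 28. Of 51 other Wnt pathway genes tested, 7 were that far apart in LLC and 0 in LLC-Chem. Of the fibroblast markers, Col1a1, Col1a2, Dcn and Lum were at least 1.5-fold higher in LLC replicate 2 than in LLC replicate 1, and the summed level was 20340 RPM against 11800 RPM (8559 and 6869 RPM in LLC-Chem). Col1a1 and Col1a2 were highest in LLC replicate 2, but Dcn, Lum and Pdgfra were higher still in both LLC-Chem pools. Between the groups these markers were mixed, with Col1a1 and Col1a2 called lower and Pdgfra called higher in LLC-Chem, and their part in the values of Sfrp2, Dkk3 and Wnt2 was not tested.

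**Figure D4:**
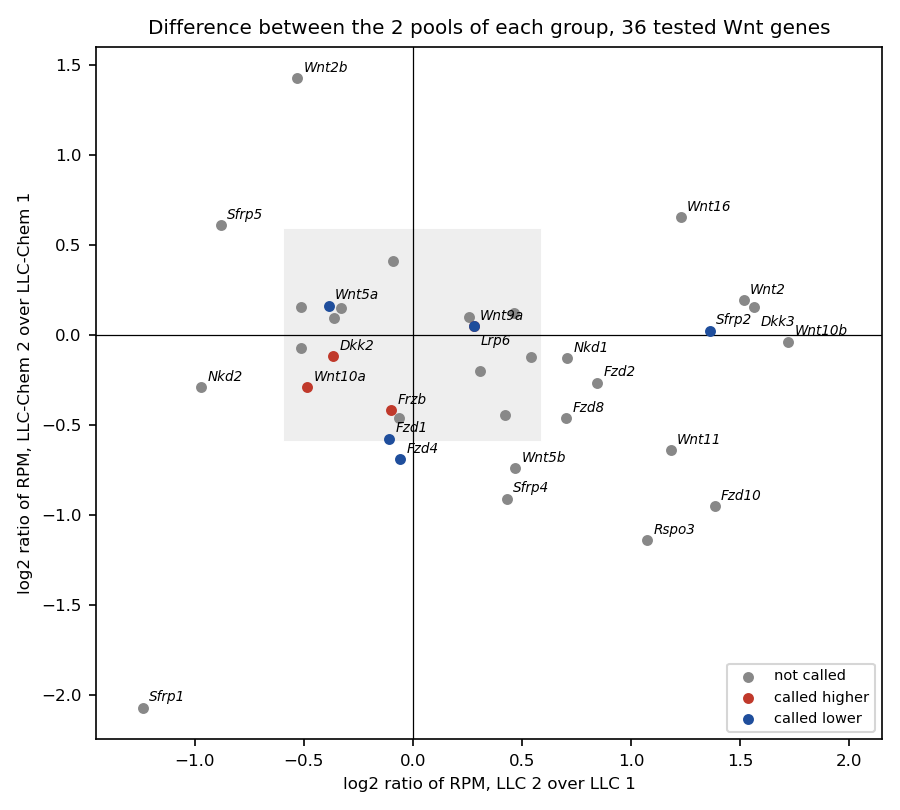
Log2 ratio of RPM between the pools of each group for the 36 tested genes (horizontal axis, LLC replicate 2 over replicate 1; vertical axis, LLC-Chem replicate 2 over replicate 1); the gray square marks a ratio under 1.5-fold in both, and color marks the call. Genes outside the square to the right, such as Wnt2, Wnt10b, Dkk3 and Sfrp2, were higher in LLC replicate 2, and Sfrp1 lies alone at the lower left.

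Other genes of the pathway, were followed with a list of 60 that shares no member with the family above. Of the 51 tested, 14 rose and 7 fell, or 27.5% and 13.7%, against the 9.54% and 13.5% of all tested genes given above. With the replicate block 7 rose and 5 fell, against 4.01% and 7.77% of all tested genes. Their median log2 fold change was 0.03. Of the nuclear partners of β-catenin and TCF/LEF, 7 of 10 rose and 1 fell. Tle1, a Groucho corepressor that binds TCF/LEF factors, went from 36.5 and 32.9 RPM to 118 and 146 RPM (1.91 ± 0.14, limma adjusted p = 0.0067). Tcf7l1 and Tcf7l2, the TCF factors of most non-lymphoid cells, went from 31.7 and 40.1 to 83.4 and 66.5 RPM and from 18.4 and 16.5 to 30.8 and 33.1 RPM (1.05 ± 0.17 and 0.85 ± 0.13, limma adjusted p = 0.0181 and 0.0164). Bcl9 and Bcl9l, which tie β-catenin to its coactivators, and the corepressors Tle2 and Tle4 also rose, by 0.64 to 0.71 on the log2 scale. Tle3 fell, from 88.2 and 92.3 to 65.1 and 58.1 RPM (-0.55 ± 0.11, limma adjusted p = 0.0258). Both TCF factors and corepressors thus stood among the genes that rose.

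Wls, the carrier that brings every lipid-modified Wnt to the cell surface, rose from 231 and 282 RPM to 548 and 628 RPM (1.20 ± 0.14, limma adjusted p = 0.0127), while Porcn, the enzyme that adds the lipid, was between 2.80 and 4.05 RPM in the 4 pools and was not called. Among other receptors, Ryk and Ptk7 rose (0.46 ± 0.10 and 0.56 ± 0.09, limma adjusted p = 0.0335 and 0.0193). Lgr6, a receptor for R-spondins, fell from 9.84 and 8.6 to 2.80 and 4.15 RPM (-1.31 ± 0.23, limma adjusted p = 0.0223), and Tpbg, a Wnt inhibitor at the cell surface, from 18.7 and 25.3 to 10.04 and 10.9 RPM. Gpc4 also fell (-0.80 ± 0.21, limma adjusted p = 0.0493). In the cytoplasm limma called 1 of 12 genes, edgeR 2 and DESeq2 3, each of them higher, against 9.54%, 11.4% and 13.7% of all tested genes. The limma call was Dvl2, which relays the signal from Frizzled and rose by 0.58 on the log2 scale. Ctnnb1, the gene of β-catenin, measured 557 and 532 RPM against 645 and 646 RPM (0.25 ± 0.11, limma adjusted p = 0.158), and Apc, Axin1 and Gsk3b of the destruction complex had log2 fold changes between -0.15 and 0.06. Of the 7 tested planar polarity genes limma called 0 and edgeR 0, while DESeq2 called 1 lower, which called 16.6% of all tested genes lower. At an unadjusted p of 0.05 in limma 3 passed, against 41.4% of all tested genes. Parts of the exons of Tpbg (23.5%) and Dvl2 (19.7%) lie under an opposite-strand gene.

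Of the 13 genes listed as targets of the pathway 10 were tested. Among these 3 rose and 3 fell, against 9.54% and 13.5% of all tested genes. Sp5, Tnfrsf19 and Mmp7 were below the filter, and Sp5 had no read in any pool. Bmp4, a secreted growth factor, rose from 1.70 and 2.55 to 10.2 and 9.20 RPM (1.98 ± 0.23, limma adjusted p = 0.0126). Wisp1 rose from 27.9 and 23.8 to 37.7 and 41.1 RPM, and Twist1, a mesenchymal transcription factor, by 0.40 on the log2 scale. Ccnd1, which drives entry into the cell cycle, fell from 205 and 156 to 89.5 and 82.6 RPM (-1.05 ± 0.15, limma adjusted p = 0.015), Jag1, a Notch ligand, from 20.9 and 30.6 to 11.8 and 9.79 RPM, and Wisp2 from 84.1 and 95.3 to 47.1 and 33.3 RPM. Myc was at 353 and 238 against 304 and 275 RPM, with overlapping pools (-0.01 ± 0.20, limma adjusted p = 0.985). Many of these genes answer to other pathways as well, and 23.4% of the exon bases of Ccnd1 lie under a gene of the opposite strand.

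**Figure D5:**
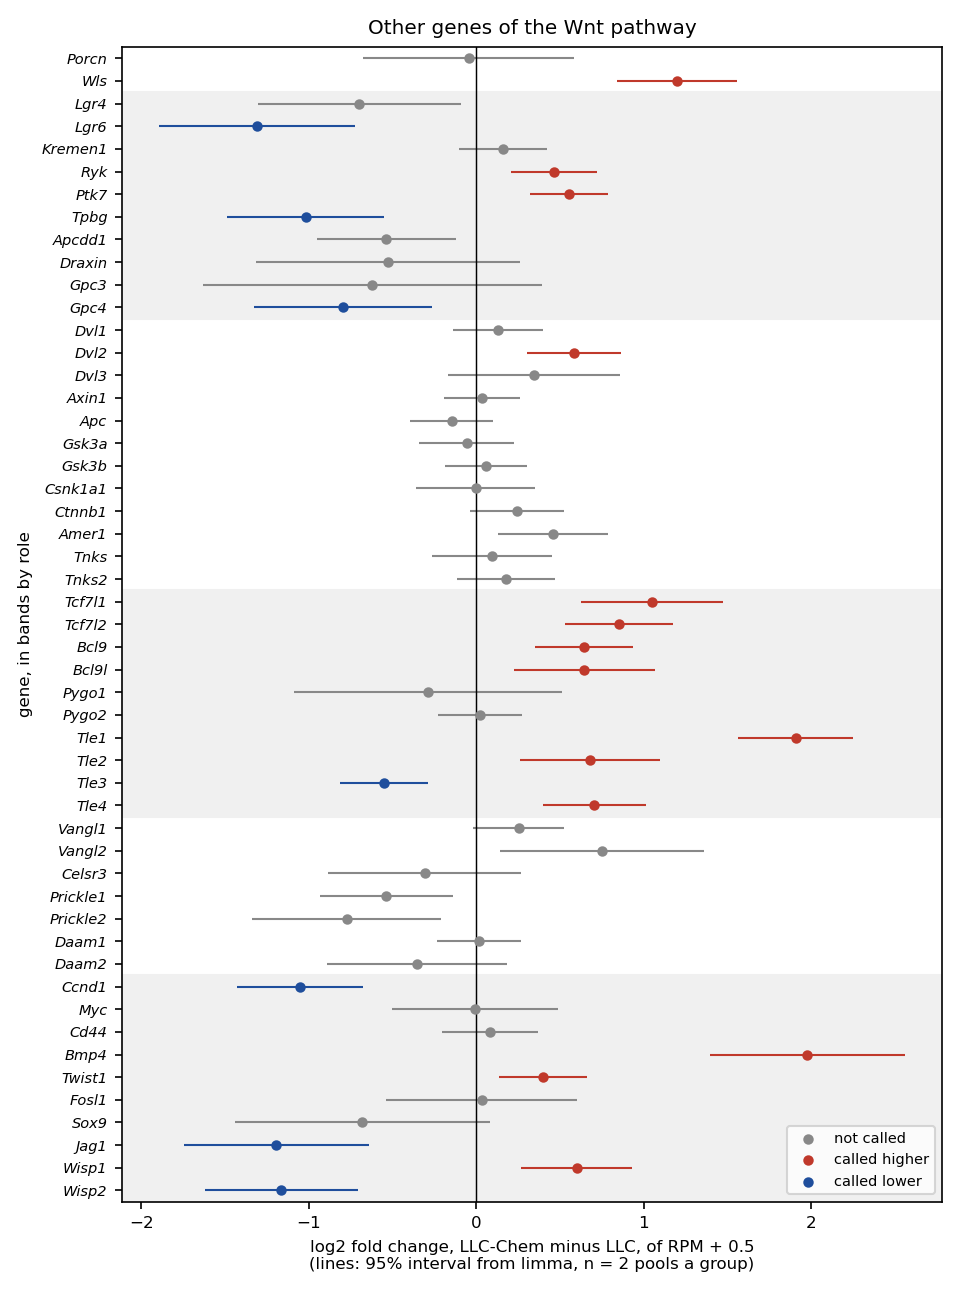
Log2 fold change (horizontal axis, LLC-Chem minus LLC, of RPM + 0.5) of the 51 tested other genes of the pathway (vertical axis, in bands by role, from secretion to target genes), each with its 95% interval from limma; n = 2 pools a group. Red marks the 14 genes called higher and blue the 7 called lower; 7 of the 10 nuclear partners lie to the right in red, and Tle1 and Bmp4 are the farthest right, at 1.91 and 1.98.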

How the data were processed

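RNA was extracted from pooled day 5 tumors and sequenced in paired-end TruSeq libraries. The authors aligned the reads with STAR to GRCm38.p4 (mm10) and counted them per Ensembl gene with HTSeq. Tool versions and the use of strand are not given in the sources used here. The deposited values are RPM per gene, scaled by the authors to a common total and held in steps of about 0.05 RPM. All values up to 50 RPM were whole steps (tolerance 0.1 step), and the reads behind them were recovered from the steps as whole reads for the count-based alternatives. The study's own test used edgeR on counts. Here the main test was limma (3.58.1, R 4.3.3) on log2(RPM + 0.5) with a trended prior, in genes averaging 1 RPM or more, with Benjamini-Hochberg adjustment over the 13694 genes tested. The alternatives were other pseudocounts (0.1 and 1), filters and scalings, a replicate block, leaving out each pool, and count tests of the recovered reads by edgeR (4.0.16, quasi-likelihood) or DESeq2 (1.42.0).

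Gene symbols and IDs are those of the table, positions and exon lengths those of GENCODE M21 (98.9% of IDs matched), and a level per length is RPM divided by the kilobases covered by any exon. The named genes are every tested family member, the called genes of the wider pathway list with its central components, Rarres2, and markers beside the results they move with. The family, the pathway list and the marker lists were chosen with earlier results of these data known. On simulated counts the limma step called 92 of 97 genes changed 2-fold and 97 of 97 changed 4-fold among 13584 genes, with 8 false calls among 197. The simulation gave every gene the same spread between pools (coefficient of variation 0.111) and changed few genes. Its rates therefore do not hold for genes whose pools differed more, such as Sfrp2, Dkk3, Wnt2 and Sfrp1. A check for repeated deposit of a library found none (chi-square per gene between pools of a group 66.5 in LLC and 27.3 in LLC-Chem), and n = 2 a group. Figures were drawn with matplotlib 3.10.9.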

Additional observations from a re-analysis of the deposited data

How the results depend on the processing

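Under 1 or more of the alternatives the count of called Wnt family genes (4 higher and 5 lower) moved by more than 1.5 times. TMM scaling gave 3 lower, the limma fit without a trend gave 2 higher, and DESeq2 on the recovered reads gave 9 lower. Over all tested genes the same fits called 1645 lower, 891 higher and 2272 lower. The main test called 1848 lower and 1306 higher. Of the other pathway genes 9 were called higher without a trend, against 14. With a filter of any value above 0, limma called 1 gene higher and 0 lower in the whole table, where 3394 and 4003 passed an unadjusted p of 0.05, and 0 family genes and 0 other pathway genes in either direction, where 4 and 11 and, of the others, 17 and 11 passed unadjusted. Leaving out each pool gave counts of 0 to 0 for all genes, for the family and for the other pathway genes, in both directions. In these 4 fits the lone pool of a group is assumed to vary like the other group, and from 998 to 2359 genes were higher and from 1580 to 2823 lower at an unadjusted p below 0.05.

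With the replicate block, the pairing by the number in the labels, 549 genes were called higher and 1064 lower, 2 family genes higher and 5 lower, and 7 other pathway genes higher. Frzb, Wnt10a, Fzd1, Fzd4 and Sfrp2 stayed called in limma (Fzd4 and Sfrp2 not in edgeR with the block), Sfrp1 and Wnt16 were called in addition, and Lrp6, Dkk2, Wnt5a and Wnt9a were not (adjusted p = 0.0615, 0.0593, 0.0577 and 0.0889 from limma). Nothing in the sources says what a number stands for, and deviations of same-numbered pools correlated at -0.14, so the numbers were not taken as pairs. Of the alternatives chosen after seeing the data, the crossed pairing as a block called 1579 of all tested genes higher and 2320 lower. Among these were 4 family genes higher and 9 lower. The other such alternative, edgeR's quasi-likelihood test with the replicate block, called 510 genes higher and 740 lower. These held 2 and 3 family genes, and 8 and 3 other pathway genes, higher and lower. The cause of these shifts was not tested. Fzd1, Frzb and Wnt10a were called in each of the 12 fits to all 4 pools that used a filter on the mean. At the filter of 1 RPM Frzb and Wnt10a pass only through LLC-Chem. Fzd1, Frzb and Wnt10a all lost the call with any value above 0 (limma adjusted p = 0.105). None of the 23 tested family genes whose groups did not overlap changed direction in any alternative. For such genes leaving out a pool, a block, a filter or another pseudocount cannot turn the direction. Only the scalings and the count tests could have done so, and the unchanged direction is otherwise no test. Of 368 comparisons 293 kept their direction and side of the threshold, 63 lost the call and 12 gained it. Of the tested genes whose groups overlapped, Wnt2, Wnt2b, Wnt5b, Fzd8, Ror2, Sfrp4, Sfrp5, Notum and Nkd2, none of them called, changed sign when 1 of the pools was left out.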
